A study of Mus musculus with 8 samples.

Results

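The circadian clock genes described here are *Per1*, *Per2*, *Per3*, *Cry1*, *Cry2*, *Arntl*, *Clock*, *Nr1d1*, *Nr1d2* and *Dbp*, which were found by their symbols in the authors' deposited table of genes. All 10 had 1 row each, and all 10 were among the 10588 genes tested. The cortex of C57BL/6 mice was compared between 2 genotypes by sequencing of poly(A)+ RNA. The bigenic mice (n = 4) carried Camk2a-tTa, a tetracycline transactivator under a promoter that is active in forebrain excitatory neurons, and the transgene deltaNLS-hTDP-43, a human TDP-43 whose nuclear localization signal was mutated so that the protein stays mostly in the cytoplasm. The nontransgenic mice (n = 4) carried neither. Both groups, each with 3 males, ate a diet with doxycycline, which holds the transgene silent, up to the age of 28 days, and the right hemisphere cortex was collected 10 days after the diet ended. Whole cortex is a mixture of cells, so that fewer cells of a type and less RNA per cell cannot be told apart. The hour of day at which the tissue was taken is not given in the sources used here.

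The circadian clock is a feedback loop of transcription. CLOCK and BMAL1, the product of *Arntl*, bind E-boxes and activate the Per, Cry and Nr1d genes and *Dbp*. PER and CRY proteins then inhibit CLOCK and BMAL1. In a further loop, REV-ERBα and REV-ERBβ, the products of *Nr1d1* and *Nr1d2*, repress *Arntl* while the ROR receptors activate it. DBP, together with its relatives TEF and HLF, activates genes through D-boxes. The mRNAs of most of these genes, though not of all to the same degree, cycle over the day in the cerebral cortex as in other tissues. *Per1* also responds within minutes to neuronal activity and CREB signaling.

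Promoter sequences were searched for the motifs of these loops, since members that share a motif could be set beside each other. RefSeq promoters (GRCm38.p6, 250 bases before to 50 bases after each start site) were found for 9 of the 10 members, all except *Per2*. These 9 had 13 promoter sequences. A member was counted if any of its sequences held the motif, whereas the shares over all promoters count each sequence singly. Both strands were searched. An E-box (CACGTG) was present in the promoters of *Per1* and *Cry1*, and in 7.15% of all 32851 promoters. The related E-prime box (CACGTT), which does not match the E-box, was present for *Cry1*, *Cry2* and *Nr1d1*, and in 4.68% of all promoters. A D-box (TTATGTAA or TTACGTAA) was present for *Per3* alone of the 9, in 2 copies, while 1.06% of all promoters held at least 1 copy and 8 promoters (0.0244%) held 2 or more. A cAMP response element (TGACGTCA) was in no window of a member and in 1.79% of all. The half-site of REV-ERB and ROR receptors (AGGTCA) was present for *Arntl*, *Clock*, *Nr1d2* and *Per1*, and in 16.3% of all promoters. The windows that hold the E-boxes, E-prime boxes and D-boxes are printed in the direction of the gene, 5′ to 3′, with the match in capitals.
Per3, D-box 205 bases before the start site (chr4:151044852-151044881, minus strand): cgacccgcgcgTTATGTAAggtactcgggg
Per3, D-box 158 bases before the start site (chr4:151044805-151044834, minus strand): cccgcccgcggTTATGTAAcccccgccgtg
Per1, E-box 166 bases before the start site (chr11:69098771-69098800, plus strand): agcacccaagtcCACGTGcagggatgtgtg
Cry1, E-box 60 bases before the start site (chr10:85185097-85185126, minus strand): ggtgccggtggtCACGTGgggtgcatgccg
Cry1, E-prime box 79 bases before the start site (chr10:85185116-85185145, minus strand): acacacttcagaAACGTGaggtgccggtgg
Cry2, E-prime box 166 bases before the start site (chr2:92434218-92434247, minus strand): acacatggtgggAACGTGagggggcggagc
Nr1d1, E-prime box 28 bases before the start site (chr11:98775388-98775417, minus strand): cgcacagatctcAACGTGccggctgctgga
These matches are letters in a window and were not measured as binding sites. Sequence outside the windows was not searched, so the absence of a motif holds for the window only.

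The values are normalized counts, that is, reads on the exons of a gene which the authors scaled by a factor per mouse and rounded. By estimate, the shallowest mouse had 10.6 M and the deepest 31.9 M reads on genes (both bigenic), so that 3 reads were worth 1.94 normalized counts in the latter and 6.20 in the former. The 10 genes lay far above this floor, between 325 and 6411 normalized counts in any mouse. The column names give the group of a mouse but not its replicate number, so mice are numbered 1 to 4 within a group in the order of the deposited columns. Values are given in that order for every gene, and the numbers are not those of the labels. Bigenic mouse 2 was the shallowest library. Mouse *Tardbp* was lower in the bigenic mice, with 5180 ± 249 against 6538 ± 420 normalized counts (SD, n = 4, adjusted p = 0.00645 by limma). Whether reads of the human transgene bear on this value was not tested. Summed markers of cortical excitatory neurons were present in every mouse, at 40632 to 57099 normalized counts in the bigenic and 65755 to 71865 in the nontransgenic mice. The lower sum came from *Camk2a*, which fell from 46892 ± 2103 to 25620 ± 3541 normalized counts (SD, n = 4), and without it the other 7 markers summed to 18520 to 26551 in bigenic and 19788 to 22071 in nontransgenic mice, ranges that overlap. Of 8 choroid plexus markers, 4 were among the genes tested, and all 4 were higher in the bigenic mice, *Ttr* and *F5* most. Testing required 10 RPM in any mouse. *F5*, *Clic6* and *Kl*, at 22 to 99 normalized counts in nontransgenic mice, reached this only in bigenic mice. The filter admitted them through the group where they are high, so their direction was set in part by the filter. *Ttr* reached 10 RPM in both groups, at 7741 to 18520 against 236 to 1023 normalized counts. The sum of the 4 was mostly *Ttr*. In each mouse, where none was at 0, it was 8385 to 19459 normalized counts against 363 to 1203. Of 8 astrocyte markers 5 (62.5%) were lower, with *Aqp4* and *Gja1* furthest down, and of 7 microglial markers measured 5 (71.4%) were lower, led by *P2ry12* and *Cx3cr1*, where 15.4% of all genes tested were lower and 20.5% higher. Of 6 inhibitory neuron markers *Sst* and *Gad1* were lower (33.3%). The single calls among 8 oligodendrocyte markers (*Mobp*, higher, 12.5%) and 6 endothelial markers (*Flt1*, lower, 16.7%) were near or below the shares over all genes. The part of cell composition in the results below was not tested.

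By limma, 7 of the 10 clock genes differed between the genotypes at an adjusted p-value below 0.05, where 35.9% of all genes tested did. The 4 genes lower in the bigenic mice were *Per3*, *Nr1d1*, *Nr1d2* and *Dbp* (15.4% of all genes tested were called lower). The 3 genes called higher were *Cry1*, *Cry2* and *Clock* (20.5% of all genes were called higher). *Per1*, *Per2* and *Arntl* did not pass the threshold. In 6 of the 10 genes no bigenic mouse overlapped the nontransgenic mice, which was the case for 39.0% of all genes tested. Of these 6, 2 were higher (22.3% of all genes) and 4 lower (16.7% of all genes) in the bigenic mice. The median log2 change of the 10 genes was 0.17, against 0.03 over all genes. Without bigenic mouse 2, 3 genes were again called higher and 4 lower.

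**Figure D1:**
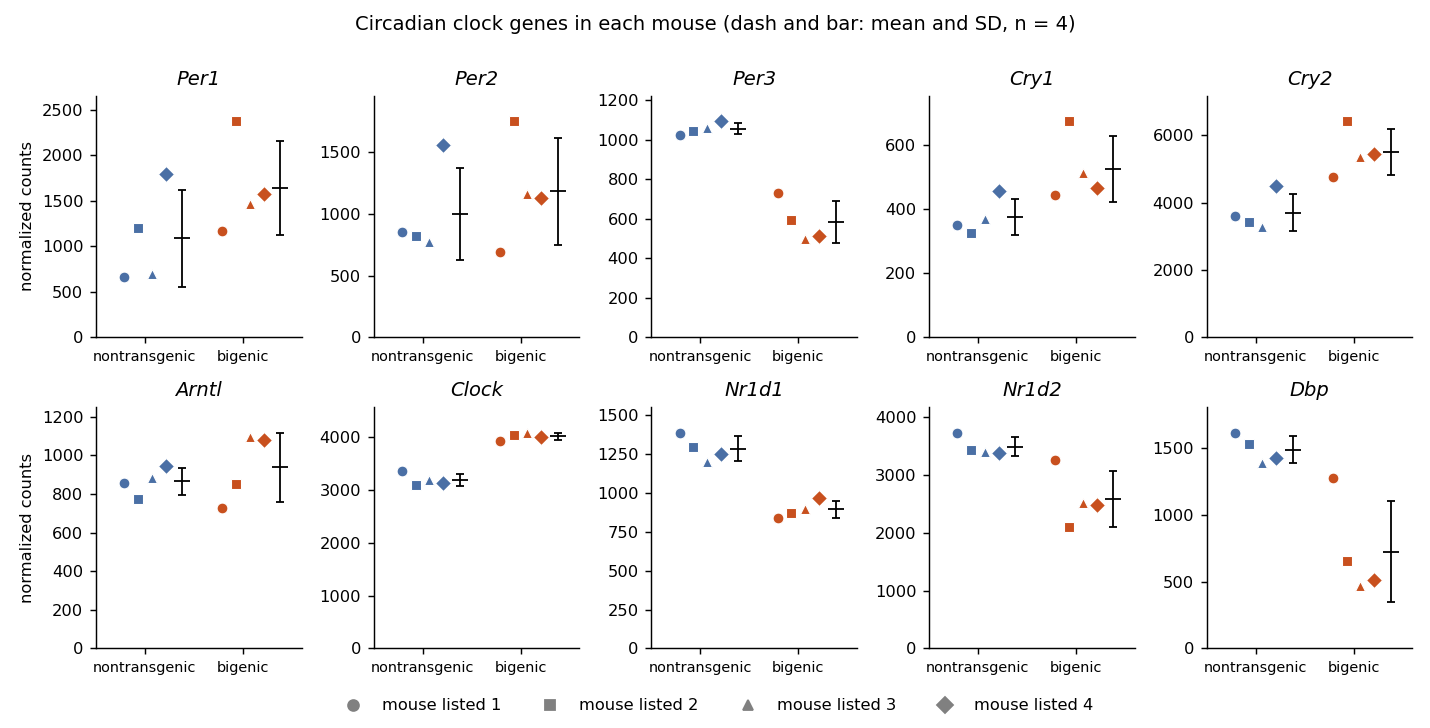
Normalized counts (linear axes from 0) of the 10 clock genes in each of the 4 nontransgenic (blue) and 4 bigenic (orange) mice, with symbols for the order of the deposited columns and a dash and bar for the mean and SD. The groups are apart for *Per3*, *Cry2*, *Clock*, *Nr1d1*, *Nr1d2* and *Dbp*, and they overlap for *Per1*, *Per2*, *Cry1* and *Arntl*.

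*Dbp* (uc009gws.2, mm9 chromosome 7, 52960458 to 52965525), which encodes the D-box activator of the clock output, showed the largest change of the 10. Its normalized counts were 1273, 651, 463 and 508 in bigenic mice, while nontransgenic mice had 1612, 1528, 1383 and 1423. Every bigenic mouse lay below every nontransgenic mouse, but bigenic mouse 1 lay much nearer to the nontransgenic range than the other 3. The log2 change, that is, the log2 of the fold change of bigenic over nontransgenic mice, was -1.16 (standard error, SE, 0.27, 95% interval -1.75 to -0.57, adjusted p = 0.00814 by limma), a level 55.2% lower. Without bigenic mouse 1 the log2 change was -1.47 (adjusted p = 0.000207 by limma). The coefficient of variation of *Dbp* was 51.8% among the bigenic and 6.97% among the nontransgenic mice, whereas the median over all genes tested was 13.1% and 7.17%. Bigenic mouse 1 also had the highest summed choroid plexus markers, at 19459 normalized counts. Bigenic mouse 3 was near it, at 17614, but had the lowest *Dbp*. The lowest summed excitatory neuron markers were those of bigenic mouse 1, at 40632 with *Camk2a* and 18520 without it. Among the bigenic mice it had the highest sums of oligodendrocyte markers (82958, the others 63759 to 65062) and microglial markers (4997, the others 4144 to 4250). The part of these sums in its *Dbp* level was not tested. Exons of *Dbp* share 491 bases with *Sphk2* on the opposite strand, and *Sphk2* was higher in the bigenic mice, with 474 ± 80 against 303 ± 42 normalized counts (SD, n = 4, adjusted p = 0.00604 by limma). Whether reads were assigned by strand is not stated, and reads of the shared bases cannot be given to either gene.

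*Per3* (uc008vye.1, mm9 chromosome 4, 150377761 to 150418774), a period gene whose protein is dispensable for the core oscillation, is the gene of the D-box matches printed above. It had 731, 594, 498 and 511 normalized counts in bigenic mice, while nontransgenic mice had 1024, 1043, 1060 and 1092. The nontransgenic mice differed by very little among themselves, and all 4 bigenic mice lay well below them. The log2 change was -0.87 (SE 0.12, 95% interval -1.13 to -0.61, adjusted p = 0.000583 by limma), a level 45.3% lower.

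The 2 REV-ERB genes, whose proteins are repressors of *Arntl*, fell as well. *Nr1d1* (uc007lhh.1, mm9 chromosome 11, 98629246 to 98636647) had 842, 869, 897 and 968 normalized counts in bigenic mice, while nontransgenic mice had 1388, 1296, 1200 and 1252, which gave a log2 change of -0.52 (SE 0.08, adjusted p = 0.000975 by limma). *Nr1d2* (uc007shp.2, mm9 chromosome 14, 19036568 to 19071641) had 3260, 2105, 2513 and 2473 against 3729, 3424, 3400 and 3382 normalized counts, a log2 change of -0.45 (SE 0.12, adjusted p = 0.0172 by limma). In both genes the groups did not overlap, although bigenic mouse 1 came within reach of the nontransgenic mice for *Nr1d2*, as it did for *Dbp*. Without nontransgenic mouse 1, *Nr1d2* had an adjusted p-value of 0.0543 by limma. Exons of *Nr1d1* share 263 bases with *Thra* on the opposite strand, the thyroid hormone receptor gene, which was far more abundant, at 8114 ± 2979 against 8718 ± 796 normalized counts (SD, n = 4, adjusted p = 0.550 by limma).

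Of the repressor genes, both cryptochromes rose. *Cry2* (uc008kxy.2, mm9 chromosome 2, 92243803 to 92274200) had 4770, 6411, 5356 and 5442 normalized counts in bigenic mice, while nontransgenic mice had 3603, 3420, 3274 and 4499, which gave a log2 change of 0.57 (SE 0.12, adjusted p = 0.00513 by limma). All 4 bigenic mice lay above the nontransgenic mice, the lowest of them close to the highest control. *Cry1* (uc007gle.1, mm9 chromosome 10, 84594447 to 84647799) had 443, 672, 513 and 465 normalized counts against 351, 325, 369 and 456, a log2 change of 0.47 (SE 0.15, adjusted p = 0.0338 by limma). Here the groups overlapped by 1 mouse on each side. The call of *Cry1* was the least stable of the 7, with adjusted p by limma of 0.0582 without bigenic mouse 3 and of 0.0888, 0.1003 and 0.0780 without nontransgenic mouse 1, 2 or 3, in that order. Exons of *Cry2* share 295 bases with the noncoding D930015M05Rik on the opposite strand, which was not among the genes tested.

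Of the 2 activator genes, *Clock* rose and *Arntl* did not pass the threshold. *Clock* (uc008xur.1, mm9 chromosome 5, 76639992 to 76733817), which encodes the partner of BMAL1, had 3925, 4039, 4082 and 4004 normalized counts in bigenic mice, while nontransgenic mice had 3353, 3087, 3180 and 3127. No other clock gene was as even among the bigenic mice, with a coefficient of variation of 1.66%, and the log2 change of 0.33 (SE 0.06, adjusted p = 0.00325 by limma) was the smallest of the 7 called. *Arntl* (uc009jhe.1, mm9 chromosome 7, 120350979 to 120457636) had 728, 850, 1093 and 1081 normalized counts in the bigenic mice, on both sides of the nontransgenic mice at 857, 776, 882 and 944. Its log2 change was 0.10, with a 95% interval of -0.20 to 0.40 (adjusted p = 0.586 by limma), so that a change of up to 1.32-fold upward or down to 0.870 of the nontransgenic level lay within the interval.

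*Per1* and *Per2*, the period genes of the core loop, varied widely within both groups. *Per1* (uc007jph.2, mm9 chromosome 11, 68908719 to 68923462) had 1166, 2370, 1461 and 1568 normalized counts in bigenic mice, while nontransgenic mice had 657, 1201, 695 and 1790. Its log2 change of 0.67 (SE 0.32, 95% interval -0.04 to 1.39) was larger than that of *Cry2* but did not pass the threshold (adjusted p = 0.126 by limma). Without nontransgenic mouse 4, which had the highest *Per1* of its group, the log2 change was 0.95 (adjusted p = 0.0276 by limma). Without bigenic mouse 2, the highest of its group, it was 0.48 (adjusted p = 0.208 by limma). No other fit that left out 1 mouse called *Per1*, with adjusted p of 0.0998 to 0.306 by limma. *Per2* (uc007cav.1, mm9 chromosome 1, 93312561 to 93355907) had 695, 1750, 1163 and 1128 against 854, 819, 769 and 1556 normalized counts, with a log2 change of 0.23 (95% interval -0.41 to 0.87, adjusted p = 0.550 by limma). The coefficients of variation were 31.4% and 48.9% for *Per1* and 36.6% and 37.3% for *Per2* in the bigenic and nontransgenic mice.

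**Figure D2:**
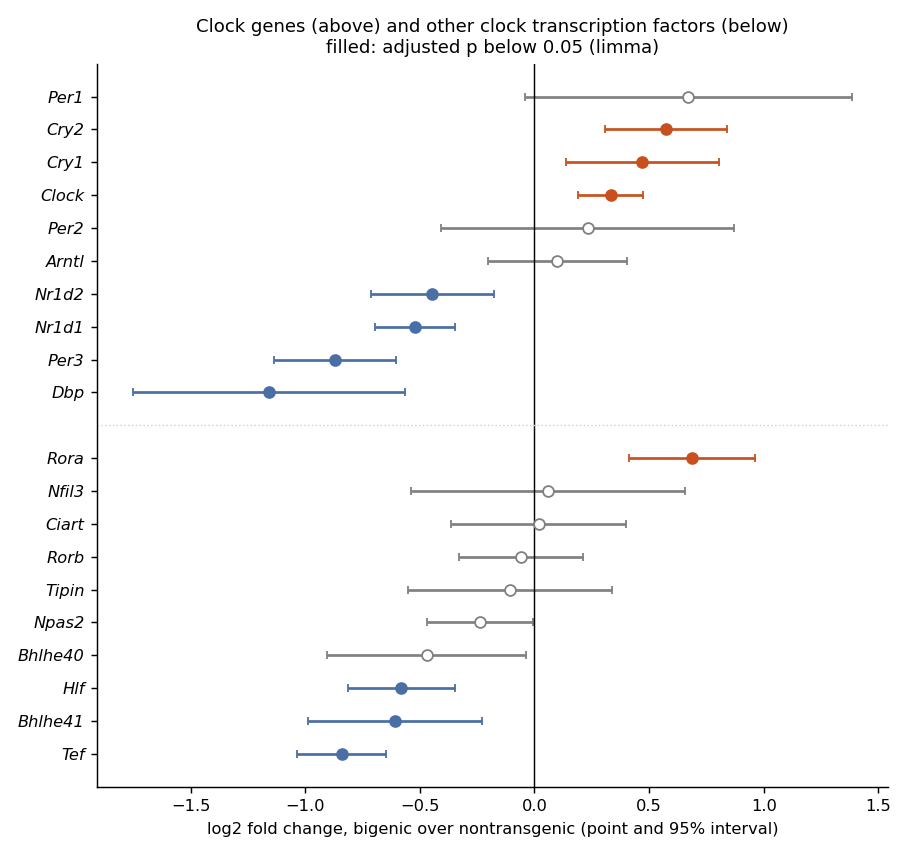
The log2 change of bigenic over nontransgenic mice with its 95% interval from limma for the 10 clock genes and, below the dotted line, for 10 other clock transcription factors. Filled points passed an adjusted p-value below 0.05, from *Dbp* at -1.16 to *Cry2* at 0.57 in the upper part and from *Tef* at -0.84 to *Rora* at 0.69 in the lower part.

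Ratios of 2 clock genes within a mouse do not depend on how the libraries were scaled. The log2 ratio of *Dbp* to *Arntl* was 0.81, -0.38, -1.24 and -1.09 in bigenic mice against 0.91, 0.98, 0.65 and 0.59 in nontransgenic mice, so that bigenic mouse 1 lay within the nontransgenic range and the other 3 far below it. The log2 ratio of *Nr1d1* to *Arntl* was 0.21, 0.03, -0.29 and -0.16 against 0.70, 0.74, 0.44 and 0.41, with no overlap. For *Per3* to *Cry2* it was -2.70, -3.43, -3.42 and -3.41 against -1.81, -1.71, -1.63 and -2.04, again with no overlap. For *Per3* to *Per1* the log2 ratio was -0.67, -1.995, -1.55 and -1.62 against 0.64, -0.20, 0.61 and -0.71, and 1 mouse of each group overlapped. These ratios are given as a description, without a test.

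Levels between genes were compared per kilobase of annotated exon. The lengths merge all GENCODE exons of a gene, and the exons on which the authors counted reads may differ from these. The part of such differences in the order below was not tested. In the nontransgenic mice the order of normalized counts per kilobase was *Nr1d2* (695.5 ± 32.8, SD, n = 4), *Cry2* (585 ± 87), *Dbp* (505 ± 35), *Nr1d1* (411 ± 26), *Clock* (361 ± 13), *Arntl* (296 ± 24), *Per1* (193 ± 94), *Per2* (171 ± 64), *Cry1* (124.5 ± 18.8) and *Per3* (109.8 ± 3.0). The ranges of neighbours overlapped from *Nr1d2* to *Dbp* and from *Arntl* to *Per3*, while *Dbp*, *Nr1d1*, *Clock* and *Arntl* were separate from one another. In the bigenic mice *Cry2* stood first, at 869 ± 108 normalized counts per kilobase (SD, n = 4) and with no overlap with *Nr1d2* at 517 ± 97. *Clock* followed at 454.3 ± 7.5, *Arntl* at 321 ± 61, *Per1* at 292 ± 91, *Nr1d1* at 286 ± 17, *Dbp* at 246 ± 127, *Per2* at 203 ± 74 and *Cry1* at 174 ± 34. *Per3* was last at 60.7 ± 11.2 and did not overlap *Cry1*. *Dbp* and *Nr1d1* thus stood above *Clock* in the nontransgenic mice and below it in the bigenic mice by their means, and the ranges of *Dbp* and *Clock* did not overlap in either group. Reads from the bases that *Dbp* shares with *Sphk2* and *Nr1d1* with *Thra* may be counted in these levels, and their part was not tested.

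Other transcription factors of the clock were taken from a list of 13 genes, of which 10 were tested. Of the 10, 3 fell (30%, against 15.4% of all genes tested) and 1 rose (10.0%, against 20.5%), and the median log2 change was -0.17. With 1 mouse left out, 2 to 4 were lower. The relatives of *Dbp* were both lower. *Tef* had 4003, 3656, 3177 and 3205 normalized counts in bigenic mice, while nontransgenic mice had 6165, 6282, 6104 and 6502, which gave a log2 change of -0.84 (SE 0.09, adjusted p = 0.000124 by limma). *Hlf* had 3037, 3536, 2615 and 2778 against 4328, 4021, 4672 and 4796 normalized counts, a log2 change of -0.58 (adjusted p = 0.00244 by limma). *Dbp*, *Tef* and *Hlf* were each lower in the bigenic mice with no overlap between the groups, as were 16.7% of all genes tested. *Nfil3*, whose protein represses through the same D-boxes, had a log2 change of 0.06 with a 95% interval of -0.54 to 0.65 (adjusted p = 0.884 by limma).

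Of the receptors that act on *Arntl* opposite to the REV-ERBs, *Rora* rose, with 874, 742, 865 and 992 normalized counts against 628, 489, 464 and 580 and a log2 change of 0.69 (adjusted p = 0.00233 by limma). *Rorb* was at 355 ± 47 against 368 ± 35 normalized counts (SD, n = 4, adjusted p = 0.732 by limma). *Bhlhe41*, which encodes an E-box repressor, fell, with 321, 176, 211 and 227 against 386, 352, 311 and 349 normalized counts and a log2 change of -0.61 (adjusted p = 0.0198 by limma), and bigenic mouse 1 overlapped the nontransgenic mice. Its adjusted p by limma was 0.0618 and 0.0533 without nontransgenic mouse 1 or 2, in that order. Its relative *Bhlhe40* had a log2 change of -0.47 (95% interval -0.90 to -0.04, adjusted p = 0.0836 by limma). *Npas2*, the paralog of *Clock*, had a log2 change of -0.24 (95% interval -0.47 to -0.01, adjusted p = 0.0983 by limma). *Ciart*, an inhibitor of BMAL1 found under its older symbol *Gm129*, had a log2 change of 0.02 (95% interval -0.36 to 0.40, adjusted p = 0.941 by limma).

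The order of mice by *Per1* within a group was shared by most immediate early genes, the genes that neurons switch on within minutes of activity. From highest to lowest *Per1*, the nontransgenic mice came in the order 4, 2, 3 and 1 and the bigenic mice in the order 2, 4, 3 and 1. The same order in both groups was shown by 8 of 10 immediate early genes (*Fos*, *Fosb*, *Junb*, *Arc*, *Egr1*, *Egr2*, *Nr4a1* and *Dusp1*) and by 1.14% of all genes tested. Taken singly, the bigenic order, led by the shallowest library, was shown by 1137 of the 10588 genes and the nontransgenic order by 633. Of the immediate early genes 9 showed each. Of 14 glucocorticoid-responsive genes 4 showed the nontransgenic order and 0 the bigenic order. *Fos* itself had 213, 1584, 495 and 712 normalized counts in bigenic mice, while nontransgenic mice had 322, 1094, 604 and 1206. *Sik1*, a CREB-induced kinase gene, and *Nfil3* followed the order as well. None of the other 9 clock genes did so in both groups. This order was examined after the values had been seen and has no test. Of the 10 immediate early genes 2 fell (20.0%, beside 15.4% of all genes), *Npas4* with a log2 change of -1.02 (adjusted p = 0.00342 by limma) and *Egr2* with -1.91 (adjusted p = 0.0475 by limma), and the other 8 did not pass the threshold. The call of *Egr2* was lost in 6 of the 8 fits that left out 1 mouse. *Egr2* was low, at 15 to 122 normalized counts in the bigenic mice. It reached 10 RPM only in nontransgenic mice 2 and 4 (264 and 299), so the filter admitted it through the group where it is high. With 10 RPM required in every mouse, 1 immediate early gene was called lower.

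**Figure D3:**
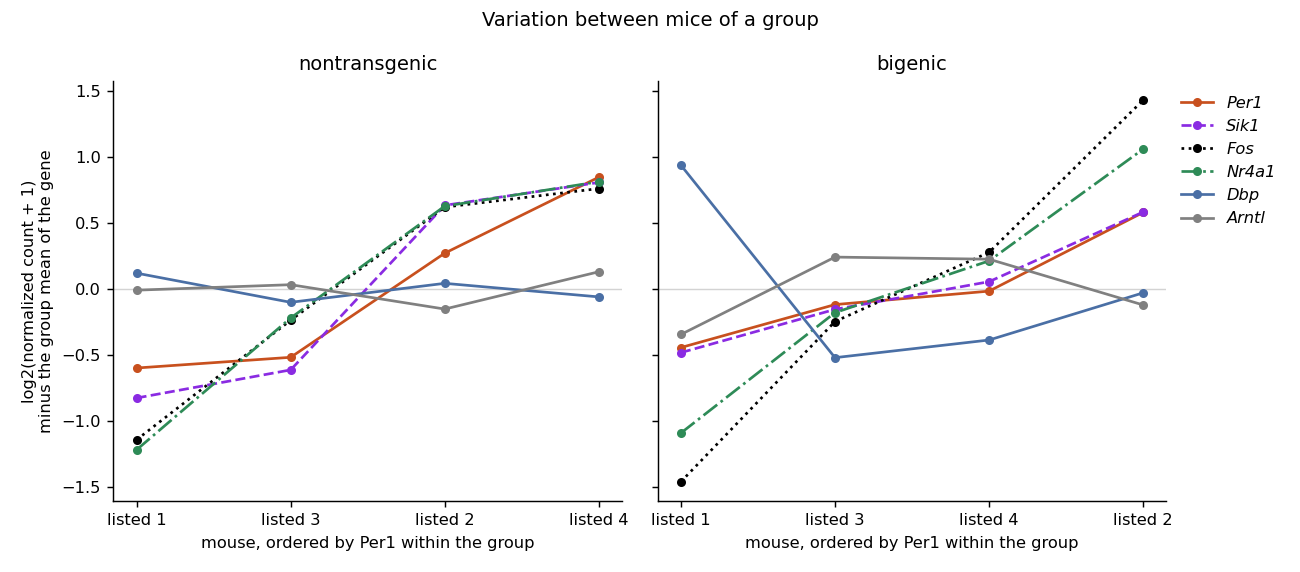
Log2(normalized count + 1) minus the group mean of each gene (vertical axis) for the 4 mice of each group, ordered from the lowest to the highest *Per1* (horizontal axis). *Sik1*, *Fos* and *Nr4a1* rise along with *Per1* in both groups, while *Dbp* is nearly flat in the nontransgenic mice and highest in 1 bigenic mouse, at 1273 normalized counts.

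The genes whose profile over the 8 mice came nearest to a clock gene were found from the root mean square difference of the centred log2 values. For *Per1*, whose own root mean square about its mean was 0.60, they were *Sik1* (0.16), *Stk40* (0.18) and *Kdm6b* (0.18). For *Dbp* (0.71) they were *Scn4b* (0.18), *Cpne5* (0.25) and *Gm1337* (0.26). Like *Dbp* these were highest of the bigenic mice in mouse 1, at 1997, 1355 and 686 normalized counts, which their choice by likeness to *Dbp* favours. For *Arntl* (0.20) they were *A930017M01Rik* (0.07), *Dlgap4* (0.08) and *Srrm2* (0.08). These likenesses are over 8 mice that share the contrast of genotype and are a description.

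Of 17 kinase and ubiquitin ligase genes that act on clock proteins 16 were tested, and 3 rose and 3 fell (18.8% each), near the shares over all genes (20.5% higher and 15.4% lower). *Csnk1d*, which encodes the casein kinase that phosphorylates PER, rose from 2711 ± 157 to 3790 ± 452 normalized counts (SD, n = 4, log2 change 0.48, adjusted p = 0.00355 by limma). Its paralog *Csnk1e* had a log2 change of 0.29 with a 95% interval of -0.07 to 0.64 (adjusted p = 0.187 by limma). *Skp1a*, a subunit of SCF ubiquitin ligases, fell from 10874 ± 387 to 6392 ± 447 normalized counts (SD, n = 4, log2 change -0.77, adjusted p = 7.9e-05 by limma). *Usp2*, which encodes a deubiquitinating enzyme, had a log2 change of 0.14 (adjusted p = 0.317 by limma). Of 16 coactivators and corepressors 15 were tested, and 4 rose (26.7%) and 1 fell (6.67%), beside 20.5% and 15.4% of all genes. With 1 mouse left out the counts were 2 to 4 higher, the lowest without nontransgenic mouse 1, 2 or 3, and 0 to 3 lower. *Kdm5a*, a histone demethylase that coactivates CLOCK and BMAL1, had a log2 change of 0.57 (adjusted p = 0.000847 by limma).

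Of 19 genes of clock input, 13 were tested, and 2 rose (15.4%) and 3 fell (23.1%), beside 20.5% and 15.4% of all genes. Again 2 were called higher whichever mouse was left out, but the lower count was 0 or 1 in 7 of the 8 fits that left out a mouse (all except that without bigenic mouse 2). *Vipr2*, which encodes a receptor of vasoactive intestinal peptide, was not among those tested. *Atf4*, a CREB-family factor of the stress response, rose from 3476 ± 386 to 8952 ± 2244 normalized counts (SD, n = 4, log2 change 1.34, adjusted p = 0.000321 by limma), and *Crtc1*, the CREB coactivator, had a log2 change of 0.65 (adjusted p = 0.00041 by limma). Of 10 rhythmic output genes 9 were tested, and 3 rose (33.3%) and 1 fell (11.1%), beside 20.5% and 15.4% of all genes, with *Leo1* at 0.69 (adjusted p = 0.0178 by limma) and *Coq10b* at -0.68 (adjusted p = 0.0088 by limma) changing most on the log2 scale. The higher count was 1 without nontransgenic mouse 2 and 0 without nontransgenic mouse 3. For *Leo1* the adjusted p-value was 0.0536 and 0.0527 by limma without nontransgenic mouse 2 or 3, in that order. Of 10 RNA-binding regulators 9 were tested, and 2 rose and 2 fell (22.2% each), with the higher share near the 20.5% over all genes and the lower beside 15.4%. With 1 mouse left out, 1 to 2 were called in each direction. *Cirbp*, the cold-inducible protein that binds *Clock* mRNA, fell by 0.62 on the log2 scale (adjusted p = 0.00243 by limma) and *Syncrip* rose by 0.33 (adjusted p = 0.012 by limma). Of 16 glucocorticoid-responsive genes, a class to which *Per1* also belongs, 14 were tested, of which *Errfi1* (log2 change 0.41) and *Cdkn1a* (0.38) were the 2 called, both higher (14.3%, beside 20.5% of all genes), and *Fkbp5* was at 759 ± 176 against 817 ± 209 normalized counts (SD, n = 4, adjusted p = 0.706 by limma). The calls of *Errfi1* and *Cdkn1a* were each lost in at least 5 of the fits that left out 1 mouse.

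**Figure D4:**
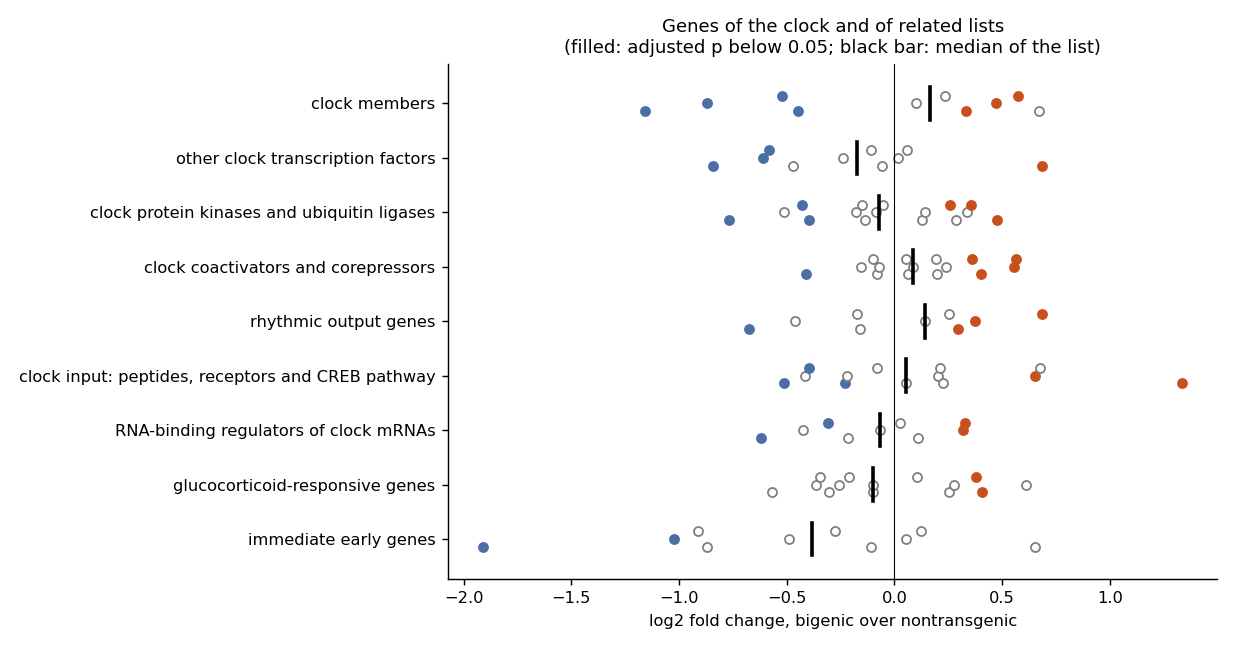
The log2 change of every tested gene in the clock list and in 8 related lists, with filled points for an adjusted p-value below 0.05 (orange higher, blue lower in bigenic mice) and a black bar for the median of each list. Every median lies between -0.38 (immediate early genes) and 0.17 (the 10 clock genes).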

How the data were processed

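RNA of 4 bigenic and 4 nontransgenic cortices was analysed. Per the paper's methods and the submitters' processing notes, adaptors were removed (cutadapt), reads were aligned to mm9 (Bowtie 0.12.7), uniquely mapping reads were retained, and exon counts (bedtools) were summed by gene. The deposited values are a score, namely counts that the authors scaled per mouse and rounded, for 28662 transcripts. The authors' DESeq2 table served only for symbols and identifiers, and its fold changes and p-values were not used.

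The worth of 1 read was estimated per mouse from integers that are skipped or doubled by the scaling. It lay near 1 in nontransgenic mouse 2, whose depth is less certain. Intervals of depth were not computed, and the floor of 3 reads covers counting error only. Values were transformed as log2(value + 1), a scale that understates the change of low genes, for the 10588 genes that reached 10 RPM of a column's total in any mouse. Groups were compared with limma 3.58.1 (trend, R 4.3.3), adjusted by Benjamini-Hochberg over all genes at a threshold of 0.05.

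The members, lists and alternatives were chosen with earlier results of these data known. Named were all members, the 2 called genes with the largest change in each other list, regulators fixed by name, and the 3 genes nearest to *Per1*, *Dbp* and *Arntl*. Some genes that this rule names are not reported here. *Tardbp*, genes sharing exon bases with a member, *Fos* and the genes in the order of *Per1* were named outside this rule, after their values were seen. The marker sum without *Camk2a* was also added then. Positions and merged exon lengths came from GENCODE (mm9) and promoters from RefSeq (GRCm38.p6). Alternatives were other pseudocounts, filters and scalings, array weights, voom, stricter thresholds, and leaving out each mouse. Python 3.11.15, numpy 2.4.6 and pandas 2.3.3 were used.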

Additional observations from a re-analysis of the deposited data

Results flagged for a closer look

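In 3 of the 38 groups of 4 mice checked (19 genes in 2 groups each), the highest mouse stood apart from the other 3 by more than the critical share of the range of the group in Dixon's test, and chance flags about 1 in 20 such groups. Nontransgenic mouse 4 had 1556 normalized counts of *Per2* (gap over range 0.892) and 4014 of *Bhlhe40* (0.874). Nontransgenic mouse 1 had 3729 normalized counts of *Nr1d2* (0.879).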

How the results depend on the processing

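Of 160 fold changes of the 10 clock genes under 16 alternatives each, 0 reversed their sign, 151 kept their side of the threshold, 5 lost the call (*Cry1* 4 times and *Nr1d2* once, each without 1 mouse) and 4 gained it. *Clock*, *Cry2*, *Dbp*, *Nr1d1* and *Per3* were called in all 16. With limma's array weights 6455 genes were called in place of 3796, 6 clock genes were higher in place of 3 and 57 genes of the 8 other lists were called in place of 32. Those gained were *Per1*, *Per2* (log2 change 0.38) and *Arntl* (0.32). At an adjusted p-value below 0.01 there were 2057 of the 10588 genes tested, and 2 clock genes were higher and 3 lower. With a change of at least 1.5-fold there were 1314 of the 10588, and 0 clock genes were higher and 2 lower. *Cry2*, at 1.489-fold, fell just short of that size. With 1 mouse left out, 2654 to 4817 genes were called, 2 to 4 clock genes higher and 3 to 4 lower, and 18 to 41 genes of the other lists (20, 18 and 19 without nontransgenic mouse 1, 2 or 3, in that order). Uncalled genes that changed sign were *Ciart* (as *Gm129*, -0.013 with array weights, -0.023 with voom, and -0.10 to 0.12 with 1 mouse left out), *Usp2* (-0.027 with array weights) and, with 1 mouse left out, *Nfil3* (-0.16 to 0.30), *Rorb* (-0.12 to 0.040) and *Fkbp5* (-0.25 to 0.063). The cause was not tested. No paired analysis was possible because the columns carry no replicate numbers of the labels. The 10 clock genes lie far above 3 reads in every mouse, but 4 mice a group leave intervals as wide as -0.04 to 1.39 for *Per1*. Bigenic mouse 2, the shallowest library, had the highest *Per1*, *Per2*, *Cry1* and *Cry2* of its group. Without it the log2 change of *Cry1* was 0.34 (adjusted p = 0.0315 by limma), and 4817 genes were called. Whether the depth of that library bears on these values was not tested.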
